A study of Mus musculus with 10 samples.

Results

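This account follows 8 genes of the kainate and delta glutamate receptor families in the mouse amygdala: the kainate receptor subunit genes Grik1, Grik2, Grik3, Grik4 and Grik5, the delta receptor subunit gene Grid1, and Neto1 and Neto2, which encode the auxiliary subunits of kainate receptors. They were taken by name, 8 of 22103 genes that the array annotation names. A probe set, the unit of the exon array that covers about 1 exon, was counted to a gene where its annotation held that symbol and no other, which gave 177 probe sets for the 8 genes among 1256831 on the array. Of these 177, 166 were above the intensity filter (a mean over the arrays above 4.94 on the log2 scale, the median of all probe sets) and 11 were below it.

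Tissue came from 2 genotypes of mice 3 months of age: wild type (C57BL/6), and neuropsin-/- mice, which lack the secreted serine protease encoded by Klk8 and had been backcrossed to C57BL/6 for 12 generations. The labels name no treatment. There were 15 animals per genotype and 5 arrays per genotype, each array holding pooled RNA of 3 animals, so the spread between arrays is a spread between pools. The labels do not say how the knockout was made or which exons of Klk8 were removed. The comparison asks how gene expression in the amygdala differs without neuropsin.

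Kainate receptors are tetrameric ion channels opened by glutamate. The products of Grik1, Grik2 and Grik3 (GluK1, GluK2 and GluK3) can form channels alone, while those of Grik4 and Grik5 (GluK4 and GluK5) bind glutamate with high affinity and need a partner from the first group. Neto proteins bind the assembled channel and slow its gating. In the amygdala, GluK1 is known for controlling GABA release from interneurons, and GluD1, the product of Grid1, works as a synaptic adhesion protein that binds cerebellins, which in turn bind neurexins.

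Klk8 itself, averaged over its 9 probe sets, read 5.17 ± 0.27 on the wild-type arrays and 5.02 ± 0.29 on the knockout arrays (SD, n = 5 each; exact permutation p = 0.413, two-sided). This mean does not separate the labelled genotypes; restricted to its brighter probe sets (those past the filter) Klk8 differed by -0.39 as knockout minus wild type (exact permutation p = 0.0476, two-sided), and the median over all 9 gave -0.61 (exact permutation p = 0.0794). The labels do not place the deletion, and probes that lie away from a deletion are no check of it. Wild-type arrays 4 and 5 stood apart on the first principal component, at 20.5 and 23.5, against -14.2 to 7.45 for the other 8 arrays. Knockout arrays 4 and 5 were the highest of their group on it, at 7.45 and 3.14. Arrays 1 and 3 were the lowest in both genotypes (wild type -14.2 and -13.4, knockout -10.3 and -11.7). Of the neuron markers, 4 of 5 were measured (at least 3 probe sets above the filter), at gene levels of 9.15 to 10.9. So were 10 of 11 of basolateral amygdala and cortex excitatory neurons (6.47 to 11.1). For central and medial amygdala it was 9 of 10 (6.14 to 8.01). Lists of other tissue passed the same filter, with 12 of 15 hypothalamus markers (5.65 to 7.46) and 5 of 5 choroid plexus markers (5.96 to 10.2). Being measured is thus no check of the tissue. The measured hypothalamus markers (12 of 15) did not overlap between genotypes as a list mean centred over the arrays (wild type 0.085 to 0.38, knockout -0.33 to -0.076). Of these 12, 11 were lower in the knockout, 8 of them with an unadjusted p under 0.05 (limma), and 3 had groups that did not overlap. Over all genes 6.98% had such a p and 1.55% did not overlap, in either direction, and 49.3% had a difference above 0. Oligodendrocyte markers (13 of 14 measured) were lower in the knockout in all 13 (list mean -0.45 to 0.50 on wild-type arrays, -0.41 to 0.0081 on knockout arrays). Of the measured central and medial amygdala markers, 9 of 9 had lower means in the knockout (median difference -0.16; list mean -0.099 to 0.30 in wild type, -0.18 to -0.028 in the knockout), and those of striatum and intercalated cells in 13 of 13 measured (median -0.18; -0.15 to 0.23 and -0.45 to 0.061). Markers of basolateral amygdala and cortex excitatory neurons were higher in 9 of 10 (median 0.11; -0.18 to 0.049 and 0.017 to 0.094). All 9 measured microglia markers and all 5 choroid plexus markers were lower (median -0.054 and -0.33), while all 4 measured neuron markers were higher (0.084). The remaining lists ran both ways. GABA interneuron markers were higher in 4 and lower in 7, oligodendrocyte precursor markers in 3 and 2, astrocyte markers in 3 and 7 and endothelium markers in 1 and 6. An unadjusted p under 0.05 was found for 4 oligodendrocyte, 4 central and medial amygdala, 2 striatum and intercalated and 2 excitatory neuron markers (limma). It was also found for 1 GABA interneuron and 1 oligodendrocyte precursor marker, both lower. None of these marker genes passed (limma). The part of these marker differences in the values below was not tested, and in such bulk tissue fewer cells of a type and less RNA per cell cannot be told apart.

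None of the 8 genes passed the test between the genotypes. The gene level, a mean of log2 values over those probe sets of the gene that lie above the filter, differed by -0.03 to 0.15 (knockout minus wild type), which is 0.978-fold to 1.11-fold. Of the 8 genes, 0 passed limma's test across all genes at a Benjamini-Hochberg adjusted p of 0.05, where 4 of 16367 genes passed (0.0244%). At an unadjusted p of 0.05 the count was also 0 of 8, where 6.98% of all genes fell under it. The smallest adjusted p was 0.721, for Grik5. No member's groups were fully separated, as they were in 1.55% of all genes. The difference was above 0 in 5 of the 8 genes, where 49.3% of all genes were, and the median difference was 0.07 for the 8 genes and -0.0019 for all genes.

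**Figure D1:**
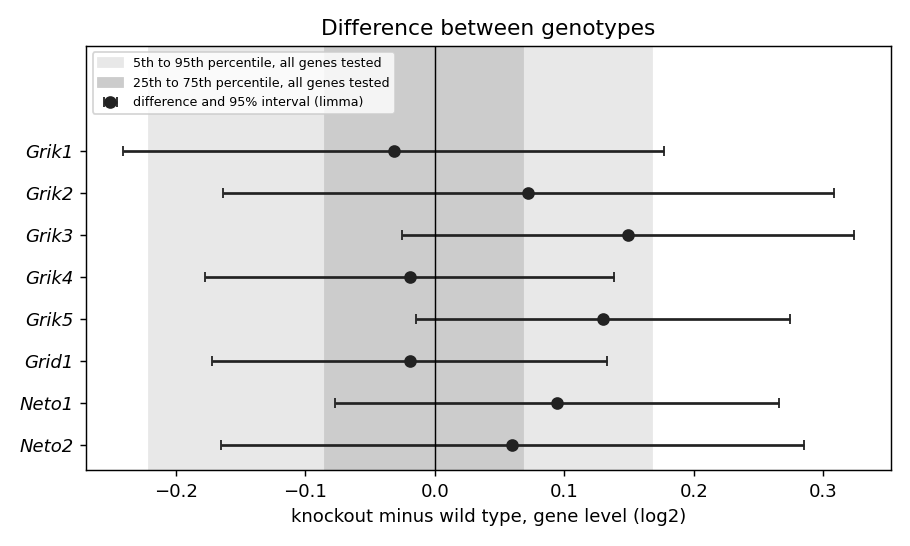
Difference in gene level between the genotypes (x axis, log2, knockout minus wild type) for each of the 8 genes, with the 95% interval of the limma fit; shaded bands give the middle of the differences of all 16367 genes. Every interval includes 0, and Grik3 (0.15) and Grik5 (0.13) lie farthest to the right, inside the 5th to 95th percentile band of all genes (-0.22 to 0.17).

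Among the subunits that form channels alone, Grik1 was at 7.48, 7.24, 7.63, 7.32 and 7.10 on wild-type arrays 1 to 5 and at 7.29, 7.34, 7.48, 7.25 and 7.26 on knockout arrays 1 to 5. The wild-type arrays held both the highest and the lowest value, and the knockout values lay between them. The means were 7.36 ± 0.21 and 7.32 ± 0.09 (SD, n = 5 each), a difference of -0.03 (SE 0.10, limma adjusted p = 0.959). The 95% interval of the fold was 0.846 to 1.13, from a fit that shares the estimate of the spread between the genotypes.

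Grik2 was at 8.59, 8.24, 8.84, 8.50 and 8.21 in wild type and at 8.64, 8.48, 8.56, 8.45 and 8.60 in the knockout. All knockout values again fell inside the wild-type range. The means were 8.47 ± 0.26 and 8.55 ± 0.08 (SD, n = 5 each), a difference of 0.07 (SE 0.11, limma adjusted p = 0.910; fold 1.05, 95% interval 0.893 to 1.24). The direction is not settled, since the difference was -0.0085 without wild-type arrays 4 and 5, and 0.0056 without wild-type array 5 to 0.16 without wild-type array 3.

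Grik3 was at 8.59, 8.38, 8.27, 8.21 and 8.39 in wild type and at 8.47, 8.58, 8.53, 8.43 and 8.57 in the knockout. Every knockout array was above wild-type arrays 2 to 5 and below wild-type array 1. Grik3 had the largest difference of the 8 genes, from 8.37 ± 0.15 to 8.52 ± 0.07 (SD, n = 5 each), or 0.15 (SE 0.08, limma adjusted p = 0.733; fold 1.11, 95% interval 0.983 to 1.25). With the median over its probe sets on each array in place of the mean, Grik3 differed by 0.027. The differences of its 22 single probe sets had a median of 0.15, and 18 were above 0.

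Of the high-affinity subunits, Grik4 was at 7.66, 7.47, 7.51, 7.44 and 7.48 in wild type and at 7.45, 7.51, 7.63, 7.49 and 7.38 in the knockout. The ranges covered each other almost wholly, with wild-type array 1 and knockout array 3 highest in their groups. The means were 7.51 ± 0.08 and 7.49 ± 0.09 (SD, n = 5 each), a difference of -0.019 (SE 0.07, limma adjusted p = 0.970; fold 0.987, 95% interval 0.885 to 1.10).

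Grik5 was at 9.47, 9.37, 9.35, 9.37 and 9.46 in wild type and at 9.51, 9.54, 9.45, 9.52 and 9.63 in the knockout. Knockout array 3 alone kept the groups from separating, since it lay below wild-type arrays 1 and 5. The means were 9.40 ± 0.06 and 9.53 ± 0.07 (SD, n = 5 each), a difference of 0.13 (SE 0.07, limma adjusted p = 0.721; fold 1.09, 95% interval 0.990 to 1.21). Grik5 is a chromosome 7 gene, as is Klk8, with 235 steps between them in the order of tested genes. Of its 20 nearest tested neighbours, 10 on each side, 10 were lower in the knockout, 1 had an unadjusted p under 0.05 and 0 passed (limma), with a median difference of -0.0086. Over all 1286 tested genes of chromosome 7, 8.94% had an unadjusted p under 0.05.

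The delta receptor gene Grid1 was at 9.07, 9.15, 9.05, 8.93 and 9.02 in wild type and at 9.03, 9.01, 9.15, 8.97 and 8.97 in the knockout. The groups overlapped over nearly their whole range. The means were 9.04 ± 0.08 and 9.02 ± 0.07 (SD, n = 5 each), a difference of -0.019 (SE 0.07, limma adjusted p = 0.969; fold 0.987, 95% interval 0.888 to 1.10).

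The auxiliary subunit gene Neto1 was at 9.52, 9.31, 9.58, 9.39 and 9.26 in wild type and at 9.58, 9.43, 9.57, 9.44 and 9.50 in the knockout. Wild-type arrays 1 and 3 lay among the knockout arrays and the other 3 below them all. The means were 9.41 ± 0.14 and 9.50 ± 0.07 (SD, n = 5 each), a difference of 0.09 (SE 0.08, limma adjusted p = 0.834; fold 1.07, 95% interval 0.948 to 1.20), which was 0.035 without wild-type arrays 4 and 5.

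Neto2 was at 8.30, 8.01, 8.40, 7.87 and 7.94 in wild type and at 8.32, 8.19, 8.09, 8.11 and 8.11 in the knockout. The wild-type arrays split into 2 high values, on arrays 1 and 3, and 3 low ones. Knockout arrays 2 to 5 lay between them, and knockout array 1 (8.32) just above wild-type array 1. The means were 8.10 ± 0.24 and 8.16 ± 0.09 (SD, n = 5 each), a difference of 0.06 (SE 0.10, limma adjusted p = 0.925; fold 1.04, 95% interval 0.892 to 1.22), and of 0.00030 without wild-type array 4 to 0.13 without wild-type array 3. For Neto2 the sign turned, to -0.076 without wild-type arrays 4 and 5 and to -0.015 with the median over probe sets.

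**Figure D2:**
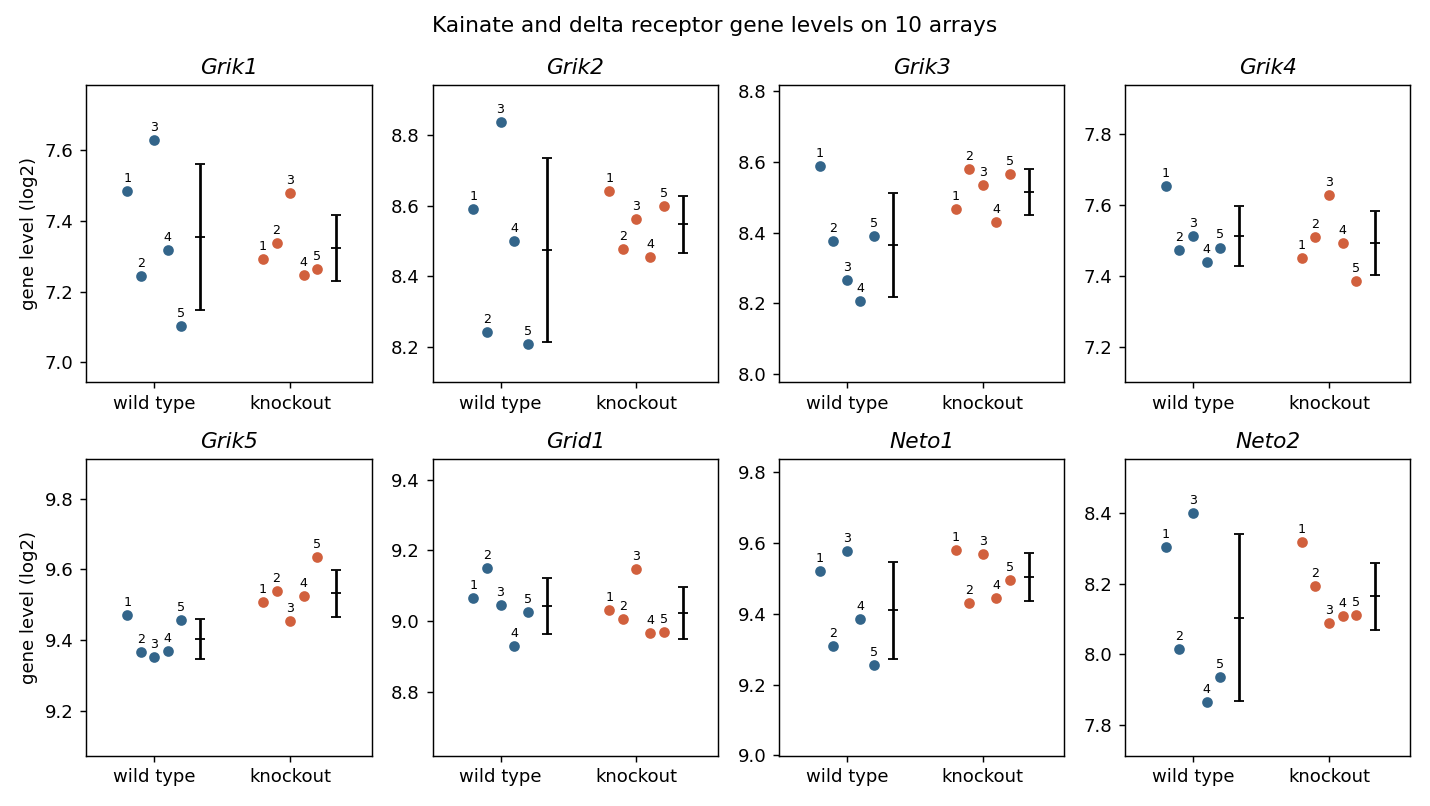
Gene level (y axis, log2) of each of the 8 genes on the 5 wild-type and 5 knockout arrays, with array numbers beside the points and the mean and SD as a bar; every panel spans the same height on the log2 scale. The wild-type points of Grik1, Grik2 and Neto2 spread over a wider range than the knockout points, while those of Grik4, Grik5 and Grid1 are tight in both genotypes.

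The 8 genes differed in how much they varied between arrays of the same genotype. Grik5 had a within-genotype SD of 0.06, smaller than in all but 1.64% of tested genes, and Grid1 (0.08) and Grik4 (0.09) had only 5.50% and 9.51% of genes below them. Grik2 (0.19), Neto2 (0.18) and Grik1 (0.16) varied more, with 72.7%, 66.8% and 56.0% of genes below them, against a median of 0.15 over all genes. A mean over more probe sets tends to vary less, and these ranks take no account of their number. Grik5, Grid1 and Grik4 had 20, 18 and 23, and Grik2, Neto2 and Grik1 28, 12 and 26, against a median of 11. In 6 of the 8 genes the wild-type arrays varied more than the knockout arrays, by 3.25 times in Grik2, 2.49 times in Neto2, 2.25 times in Grik3 and 2.21 times in Grik1. That pattern was general: 73.2% of all tested genes had the larger SD in wild type, and 27.7% had one at least 2 times as large.

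Within the genotypes, Grik1, Grik2 and Neto1 varied together most closely. After the mean of each genotype was removed, Grik2 and the auxiliary subunit gene Neto1 had a Pearson r of 0.94 and a Spearman rho of 0.95 over the 10 arrays. Its exact permutation p, over all orders within the genotypes, was 0.00160 for r and 0.00396 for rho (two-sided), or 0.0447 and 0.111 with Benjamini-Hochberg adjustment over the 28 pairs of members. These orders treat the arrays of a genotype as exchangeable and take no account of the replicate number. Leaving out the 2 arrays farthest from the median of Grik2, r was 0.87. No other pair was under 0.05 after that adjustment, the next being Grik1 with Neto1 (exact permutation, adjusted p of r = 0.0778). Only 0.0917% of all genes correlated with Grik2 at least as strongly as Neto1 did, and 0.128% of all genes with Neto1 at least as strongly as Grik2. Grik1 correlated with Neto1 at 0.89 (rho 0.82, r 0.73 without the 2 arrays farthest from the median of Grik1) and with Grik2 at 0.85 (rho 0.76, r 0.55 without those 2). Neto2 was at 0.78 with Neto1, 0.74 with Grik2 and 0.70 with Grik1 (rho 0.73, 0.75 and 0.66), and these fell to 0.59, 0.45 and 0.37 without 2 arrays, so they rest in part on the outer arrays. Neto2 was less set apart: 7.06% of all genes correlated with it at least as strongly as Neto1 did, 10.3% at least as strongly as Grik2 and 14.4% at least as strongly as Grik1.

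Some marker lists of cell types correlated with these genes, to unlike degrees. The list mean of the 7 measured endothelium markers correlated with Neto2 at 0.85 (rho 0.79), above any of the 8 genes, with Neto1 at 0.70 (rho 0.67), with Grik1 at 0.62 (rho 0.61) and with Grik2 at 0.54 (rho 0.61). That of the 10 astrocyte markers correlated with Neto2 at 0.75 (rho 0.66), but with Grik1, Neto1 and Grik2 at 0.44, 0.41 and 0.26. That of the 4 neuron markers was at 0.68 with Neto2 and 0.67 with Grik1 (rho 0.68 and 0.66), 0.57 with Neto1 and 0.44 with Grik2. The GABA interneuron list was at 0.69 with Neto2 and 0.36 with Grik2. That of basolateral amygdala and cortex excitatory neurons lay between -0.28 (Grik2) and 0.15 (Neto2) for these genes. The endothelium list mean ran from -0.23 to 0.24 on wild-type arrays and from -0.17 to 0.14 on knockout arrays. Their part in the covariation was not tested. The correlations are descriptions over arrays that share their normalization and tissue handling, and the pairs and lists named here were chosen after their values were seen.

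The widest deviation was on a wild-type array in Grik1, Grik2, Grik3, Grik4, Neto1 and Neto2. In Grik5 it was on knockout array 5 (0.10) and in Grid1 on knockout array 3 (0.12). Wild-type array 3 was the highest of its group for Grik1, Grik2, Neto1 and Neto2, by 0.27, 0.36, 0.17 and 0.30 over the wild-type mean. Wild-type array 5 was the lowest for Grik1, Grik2 and Neto1, by -0.25, -0.27 and -0.15, and wild-type array 4 for Neto2, by -0.24. Array 3 exceeded array 5 in 27 of 28 Grik2 probe sets, 24 of 26 of Grik1, 14 of 17 of Neto1 and 11 of 12 of Neto2. It did so in 10 of 23 for Grik4, 9 of 18 for Grid1, 7 of 22 for Grik3, 7 of 20 for Grik5 and 60.4% over all tested genes. The 2 arrays were picked on the means of these same probe sets, so the counts only describe how evenly the order ran along each gene.

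**Figure D3:**
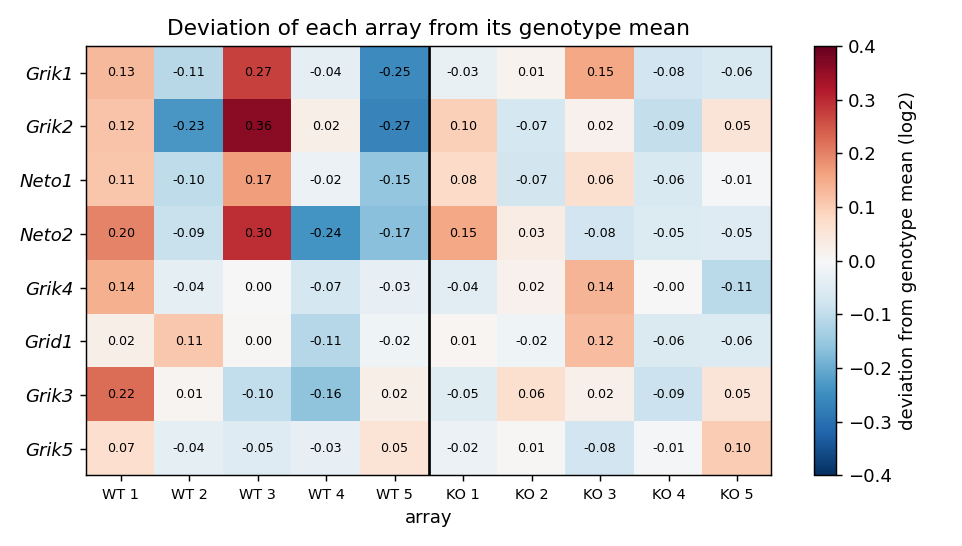
Deviation of each array from the mean of its genotype (colour and printed value, log2) for the 8 genes, wild-type arrays on the left of the line and knockout arrays on the right. Grik1, Grik2, Neto1 and Neto2 are high together on wild-type arrays 1 and 3 and low on wild-type arrays 2 and 5, while Grik5 does not follow them.

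Grik5 did not correlate positively with Grik1, Grik2, Neto1 or Neto2 by Pearson's r. Its 20 tested probe sets followed each other weakly over the arrays. Their median r with the mean of the others was 0.16, against 0.37 over all tested genes. A low correlation of the Grik5 gene level therefore says little. Its correlation with Grik1, Grik2, Neto1 and Neto2 was -0.38, -0.16, -0.23 and -0.018 (rho -0.37, -0.03, -0.19 and 0.13). Its highest correlation among the 8 genes was with Grik3, at 0.59 (rho 0.65, r 0.46 without the 2 arrays farthest from the median of Grik3). Grik3 itself was at 0.06, -0.12, 0.05 and 0.27 with Grik1, Grik2, Neto1 and Neto2 (rho 0.018, -0.08, -0.12 and 0.24). Grik4 had its highest correlation with Grik1, at 0.57 (rho 0.58), and this was 0.88 without the 2 arrays farthest from the median of Grik1. Grik4 and Grid1 correlated at 0.56 with each other (rho 0.53, r 0.26 without the 2 arrays farthest from the median of Grik4). Grid1 and Neto2 were at 0.21 (rho 0.30), and at 0.81 without the 2 arrays farthest from the median of Grid1, so a few arrays set several of these values.

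**Figure D4:**
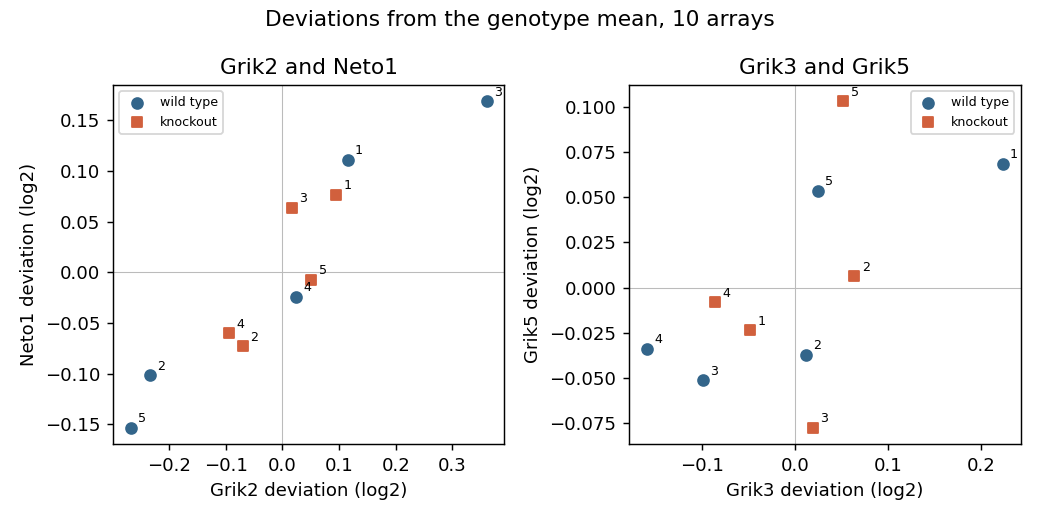
Deviations from the genotype mean (both axes, log2) on the 10 arrays for Grik2 against Neto1 (left, r = 0.94) and Grik3 against Grik5 (right, r = 0.59), with array numbers beside the points. The Grik2 and Neto1 points lie near a line in both genotypes, with wild-type arrays 3 and 5 at its ends, while the Grik3 and Grik5 points scatter.

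The promoter windows are shown for Grik2 and Neto2, the matched genes with the largest spread between arrays, and for the pair with the largest genotype differences, Grik3 and Grik5. Sequences are from RefSeq (GRCm38.p6), which matched 5 of the 8 genes, Grik2, Grik3, Grik4, Grik5 and Neto2; Grik1, Grid1 and Neto1 were not matched. Each is the 250 bases before the annotated start, 5′ to 3′ on the gene's strand, with every GGGCGG (the GC box, in either orientation, so also CCGCCC) in capitals.
Grik2, chr10:49788755-49789004, minus strand: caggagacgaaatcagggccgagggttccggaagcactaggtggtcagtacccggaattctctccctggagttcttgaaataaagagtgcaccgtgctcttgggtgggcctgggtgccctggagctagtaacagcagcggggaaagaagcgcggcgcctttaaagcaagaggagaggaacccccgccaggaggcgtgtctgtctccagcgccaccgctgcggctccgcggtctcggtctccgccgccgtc
Neto2, chr8:85700925-85701174, minus strand: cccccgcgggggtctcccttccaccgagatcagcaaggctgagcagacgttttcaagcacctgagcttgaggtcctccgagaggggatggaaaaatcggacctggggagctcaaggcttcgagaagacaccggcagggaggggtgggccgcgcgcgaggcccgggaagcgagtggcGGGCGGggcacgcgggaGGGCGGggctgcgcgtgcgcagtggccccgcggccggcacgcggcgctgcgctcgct
Grik3, chr4:125490446-125490695, plus strand: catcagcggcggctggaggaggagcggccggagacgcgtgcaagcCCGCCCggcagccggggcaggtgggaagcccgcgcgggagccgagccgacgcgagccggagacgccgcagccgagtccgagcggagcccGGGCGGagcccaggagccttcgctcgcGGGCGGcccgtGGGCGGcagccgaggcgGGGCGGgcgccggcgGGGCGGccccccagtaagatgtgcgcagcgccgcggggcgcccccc
Grik5, chr7:25072370-25072619, minus strand: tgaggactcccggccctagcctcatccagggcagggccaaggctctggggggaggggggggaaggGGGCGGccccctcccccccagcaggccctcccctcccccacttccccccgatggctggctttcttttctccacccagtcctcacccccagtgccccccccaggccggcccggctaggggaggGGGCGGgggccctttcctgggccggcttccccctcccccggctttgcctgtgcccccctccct
The GC box was found 0 times in the Grik2 window, 2 times in that of Neto2, 6 times in that of Grik3 and 2 times in that of Grik5, and 32.7% of all 32851 promoter windows hold it at least once. The GC content was 62.8% for Grik2, 72.0% for Neto2, 82.0% for Grik3 and 75.2% for Grik5, against a median of 52.4%. CpG dinucleotides numbered 20, 30, 42 and 8 in that order, against a median of 6. Grik5 thus had the fewest CpG of these 4 windows, and a match is a description of letters, not a site.

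Outside the family, the genes whose levels followed each member most closely over the 10 arrays, genotype means removed, were Rabggtb (r = 0.98) and Bub3 (0.96) for Grik1, Jrk (0.97) and the dopamine transporter gene Slc6a3 (0.97) for Grik2, and Tifa (0.98) and Ccdc66 (0.98) for Neto1. For Neto2 they were Dimt1 (0.98) and Usp24 (0.98), for Grik3 Adcy7 (0.95) and Zfp362 (0.94), and for Grik4 Plpp4 (0.97) and Timp4 (0.95). For Grik5 they were Agap2 (0.94) and Celf5 (0.94), and for Grid1 Gys1 (0.96) and Atmin (0.96). With 16366 genes compared over 10 arrays, such values are reached by many genes: 13 genes had an r over 0.9 with Grik5 and 147 with Neto2.

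Of the 166 tested probe sets taken singly, 0 passed (limma, adjusted over 628415 probe sets, of which 15 passed, 0.00239%). Of the 166, 3 had an unadjusted p under 0.05, or 1.81%, where 5.97% of all probe sets did. All 3 were higher in the knockout, where 3.33% of all probe sets were higher and under that p. Differences ranged from -0.44 to 0.43, and 103 of the 166 were above 0, or 62.0%, against 54.2% of the probe sets of all tested genes. Probe sets of a gene share arrays and are not replicates.

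The lowest unadjusted p was that of Grik5 probe set 5017892, at 7.51, 7.95, 7.94, 7.97 and 8.04 in wild type and at 8.33, 8.11, 8.11, 8.31 and 8.63 in the knockout. Its groups did not overlap, the one such case among the 166 probe sets, where 1.10% of all probe sets were separated in either direction. It differed by 0.42 (SE 0.16, limma adjusted p = 0.822). Grik3 probe set 4664406 was at 8.19 to 8.73 on wild-type arrays (median 8.41) and at 8.69 to 8.81 on knockout arrays (median 8.79), a difference of 0.33 (SE 0.15, limma adjusted p = 0.836). Neto2 probe set 4924114 was at 8.01 to 8.83 on wild-type arrays (median 8.21) and at 8.60 to 8.92 on knockout arrays (median 8.79), a difference of 0.39 (SE 0.18, limma adjusted p = 0.837). These values overlap between the groups in Grik3 and Neto2.

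**Figure D5:**
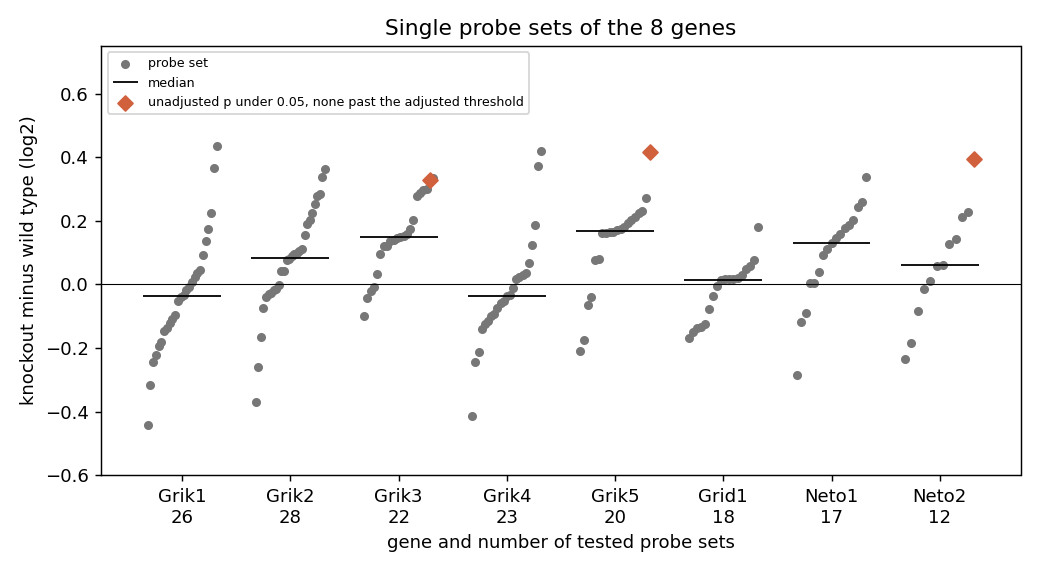
Difference between the genotypes (y axis, log2, knockout minus wild type) of each tested probe set, ordered within its gene, with the median of the gene as a line and diamonds for the 3 probe sets with an unadjusted p under 0.05. Grik3, Grik5 and Neto1 have most of their probe sets above 0, and none of the 166 passed after adjustment.

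The direction along each gene differed by member. The share of tested probe sets above 0 was highest in Neto1 (14 of 17), Grik3 (18 of 22) and Grik5 (16 of 20), with median differences of 0.13, 0.15 and 0.17. It was 18 of 28 in Grik2, 8 of 12 in Neto2 and 10 of 18 in Grid1. In Grik1 and Grik4 most were below 0, 16 of 26 and 14 of 23, with a median of -0.04 in each. The widest spread along a gene was that of Grik1, from -0.44 at probe set 5025001 to 0.43, and the narrowest that of Grid1, from -0.17 at probe set 4726990 to 0.18 at probe set 4676368.

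No member passed the test for a part that differs from the rest of its gene. Relative probe set use, a probe set's value minus the mean of the gene's other probe sets, passed in 0 of the 8 genes (limma, Simes p per gene, adjusted over 16367 genes), where 6 genes passed (0.0367%). The smallest adjusted Simes p was 0.971, for Grik5. Limma's diffSplice, which shares 1 variance over a gene and called 276 genes (1.69%), also called 0 of the 8, with the smallest adjusted p at 0.786, again for Grik5. Of the 166 probe sets, 5 had an unadjusted p under 0.05 for relative use (limma). This is a smaller share than the 5.26% of all those tested (12533 of 238335).

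How well a gene's probe sets followed each other also differed. The correlation of a probe set with the mean of the gene's others over the 10 arrays, genotype means removed, had a median of 0.61 in Grik2, 0.59 in Grik1 and 0.55 in Grik3, and of 0.37 over all tested genes. It was 0.47 in Neto2, 0.41 in Neto1 and 0.41 in Grid1. It was lowest in Grik5 (0.16) and Grik4 (0.11). In Grik2, 22 of 28 probe sets were above 0.5, and in Grik5 2 of 20.

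The other glutamate receptor genes and partners gave no call either. Of the AMPA receptor subunits and their auxiliary subunits, 14 of 15 were measured, 8 were higher and 6 lower in the knockout, and 0 passed (limma), with 4 at an unadjusted p under 0.05, all higher, where 6.98% of all genes were under it in either direction. Those of smallest p were Gria3, an AMPA receptor subunit gene, at 0.25 (SE 0.09), Cacng8, which encodes a transmembrane AMPA receptor regulatory protein, at 0.27 (SE 0.09), and Cnih3, a cornichon gene, at 0.19 (SE 0.08). The NMDA receptor subunit genes were all measured, 4 higher and 3 lower, with 0 past the threshold and 2 at an unadjusted p under 0.05, both higher. These were Grin2b at 0.24 (SE 0.07, limma adjusted p = 0.582) and Grin2a at 0.21 (SE 0.07, limma adjusted p = 0.693), both NMDA receptor subunit genes whose groups did not overlap, as in 1.55% of all genes. Of 7 measured metabotropic glutamate receptor genes, 3 were higher and 4 lower, with 0 at an unadjusted p under 0.05. Median differences were 0.12, 0.03 and -0.0082 for these lists.

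Of 18 measured partners and modifiers of kainate receptors, which bind, traffic, phosphorylate or edit them, 14 were higher and 4 lower, with a median of 0.04 and 0 past the threshold (limma). The scaffold gene Dlg3 was at 0.18 (SE 0.07), with groups that did not overlap (1.55% of all genes). It was the 1 gene of the list with an unadjusted p under 0.05 (6.98% of all genes). Grip1, a scaffold that binds AMPA and kainate receptor subunits, was at 0.14 (SE 0.07), and at 0.067 with the median over probe sets. Of 8 measured partners of delta receptors, 4 were higher and 4 lower, with a median of -0.06, and 0 passed. Where 6.98% of all genes had an unadjusted p under 0.05 in either direction, 2 of these partners did, both lower. They were the cerebellin gene Cbln2, whose product binds delta receptors, at -0.35 (SE 0.14), and Grid2ip at -0.22 (SE 0.10). Both were smaller with the stricter intensity filter, at -0.17 and -0.10. Cbln2 was at -0.53 without wild-type arrays 4 and 5 and at -0.23 without wild-type array 1, and Grid2ip at -0.15 without knockout array 1. Cbln4, another cerebellin gene, was at -0.12 (SE 0.09), at -0.20 without wild-type arrays 4 and 5 and at -0.048 without wild-type array 1.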

How the data were processed

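The deposited table holds log2 expression values, which the authors made per probe set with RMA in Expression Console, as the sample descriptions and the submitters' processing notes say. The version of that software and the build behind the array annotation were not given in the sources read. RMA as usually run includes quantile normalization, which removes any shift shared by all probe sets, and levels are not compared between genes, since probes differ in how they bind.

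The platform annotation gave 318760 probe sets 1 gene symbol, and an old symbol was replaced where it is a synonym of just 1 RefSeq gene. Tested were 628415 probe sets above the median of all (4.94), and 16367 genes with at least 3 of them that carried that symbol alone. Genotypes were compared with limma version 3.58.1 (lmFit, eBayes, two-sided, Benjamini-Hochberg, threshold 0.05) in R version 4.3.3 on 10 arrays, without covariates. Scripts were tested on simulated data. The number of arrays, 5 per genotype, limits the precision, and p-values measure the spread between pools.

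The genes and lists were chosen with earlier results of these data known. Beside the 8 genes, the text names for each list up to 3 genes of smallest p, for each member the 2 probe sets of smallest p and the 2 genes of highest correlation, passing over predicted genes. Alternatives were another normalization or filter, the replicate number as a block, array weights, another variance prior, other summaries of probe sets and leaving out arrays.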

Additional observations from a re-analysis of the deposited data

Results flagged for a closer look

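In 10 of 80 groups of 5 arrays examined, 1 array lay far from the other 4 (Dixon's test, with a nominal rate of 5%). Most of these groups belong to genes and probe sets picked for their smallest p, and they share arrays. The rate over all genes was not computed, so the count cannot be read as an excess. Of the 8 genes, none was among them at the gene level, and 5 of their single probe sets were.

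Grik3 was low on knockout array 4 at both probe sets named for it: 8.69 at probe set 4664406, against 8.78 to 8.81 on the other knockout arrays, and 8.74 at probe set 5486264, against 9.11 to 9.23. Grik5 was low on wild-type array 1 at probe set 5017892, at 7.51 against 7.94 to 8.04, and high on knockout array 5 at probe set 4463215, at 10.48 against 10.22 to 10.28. Neto1 was low on knockout array 3 at probe set 4822935, at 9.08 against 9.47 to 9.61.

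Among the other glutamate receptor and partner genes, Grin2a was high on knockout array 3, at 9.60 against 9.39 to 9.42, and Grm5 on the same array, at 10.55 against 10.35 to 10.40. Gria3 was high on wild-type array 3, at 9.27 against 8.86 to 8.91. Dlg3 was low on knockout array 1, at 9.06 against 9.11 to 9.12, and Grid2ip on wild-type array 3, at 6.12 against 6.43 to 6.49.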

How the results depend on the processing

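Under all alternatives run (21 per gene, all planned), none of the 8 genes passed at the gene level, none of their probe sets passed, and none passed for relative probe set use. Grik3, Grik5 and Neto1 stayed higher in the knockout throughout, Grik5 at 0.10 to 0.15 and Grik3 at 0.027 (median over probe sets) to 0.21. The sign turned for Grik1 without the intensity filter (0.015), for Grik2 (-0.0085) and Neto2 (-0.076) without wild-type arrays 4 and 5, and for Neto2 with the median over probe sets (-0.015). With 1 array left out, Grik1 ranged from -0.095 to 0.037, Grik4 from -0.053 to 0.017, Grid1 from -0.050 to 0.0074, Grik2 from 0.0056 to 0.16, Neto2 from 0.00030 to 0.13, Neto1 from 0.056 to 0.14 and Grik3 from 0.11 to 0.21. Grik1 turned without wild-type array 1 (0.00063) or 3 (0.037), Grik4 when wild-type array 1 (0.017) or knockout array 5 (0.0080) was dropped, and Grid1 without wild-type array 2 (0.0074). The cause was not tested.

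Counts over the whole array were less firm. Genes passing were 4, and 2 where 1 probe set sufficed for a gene and 2 to 6 with 1 array left out. Probe sets passing were 15, and 3 after quantile normalization again, 2 without the filter, 66 with the stricter filter, 102 with the trended and robust prior, 3 without wild-type arrays 4 and 5 and 2 to 9 with 1 array left out. Genes passing for relative use were 6, and 10 with that prior, 2 without wild-type arrays 4 and 5, 276 with diffSplice and 2 to 6 with 1 array left out. With the replicate number as a block, 0 probe sets and 2 genes for relative use passed, and 0 members did. The numbers are not taken as a pairing, since the labels tie them to no shared animal or batch. Of the 5 same-numbered pairs, 1 was under 0.1 (r = 0.08, the others 0.24 to 0.41). Not every array correlated best with its own number in the other genotype, but arrays 1, 3 and 4 of both genotypes did. On the first principal component, numbers 1 and 3 were lowest and 4 and 5 highest in both genotypes. The main fit takes no account of the numbers. A batch behind the numbers was not tested otherwise. The mean of the Klk8 probe sets above the filter differed by -0.39 (exact permutation p = 0.0476), against -0.15 over all 9. Background correction could not be varied from the processed values.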

Other observations

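The 11 probe sets of these genes below the intensity filter were not tested. They belonged to Grik1 (4, mean levels of 2.21 to 4.90), Grik2 (4, 3.82 to 4.89), Neto2 (2, 3.57 and 4.91) and Grik4 (1, 4.23), and in all of them the genotypes overlapped. Grik2 probe set 5521826, named after its values were seen, averaged 4.50 ± 0.59 on wild-type and 5.29 ± 0.26 on knockout arrays (SD, n = 5 each).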
